A study of Homo sapiens with 10 samples.

Results

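The comparison described here set 2 arrays of U937 cells taken 6 h after cross-linking of CD64 against 2 arrays taken 2 h after it, which were 4 of the 10 arrays of the series and were chosen by their titles. U937 is an established human line of monocytic origin. All cultures, the control included, had been treated with IFN gamma to differentiate them, so no group showed cells without that cytokine. The remaining arrays were 2 control arrays, for which neither cross-linking nor a time was listed, 2 arrays of cells cross-linked through CD32 for 2 h and 2 arrays of cells cross-linked through CD32 for 6 h. The sources used here did not name the agent that cross-linked the receptors. The source name of the first CD32 2 h array gave the receptor as CD332, whereas its title and description gave CD32, and these were followed. The other array of each cross-linked pair was called a duplicate, and nothing said that it came from a separate culture, so the p-values measure the spread between these arrays, which may be technical. Of 8746 probe sets that were not controls, 7708 were above a floor of 37.5 signal units on at least 2 arrays and were tested with limma, and a difference was called at an adjusted p under 0.05. Because RNA came from whole cultures, a change in the share of cells that hold a transcript and a change in its amount per cell cannot be told apart.

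CD64 is the high-affinity receptor for IgG on monocytes and macrophages. It has no signalling motif of its own and pairs with the common gamma chain, FCER1G, whose tyrosines are phosphorylated by SRC-family kinases when the receptor is clustered, after which SYK, phospholipase C gamma and the NF-kappaB and MAP kinase pathways are engaged. CD32 binds IgG with low affinity and exists as activating forms, such as FCGR2A, and an inhibitory form, FCGR2B. Clustering of Fc gamma receptors is known to drive phagocytosis, the oxidative burst and the release of chemokines and cytokines. Interferon-stimulated genes, by contrast, are switched on by STAT and IRF proteins that bind the interferon-stimulated response element in their promoters.

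Between 2 h and 6 h of CD64 cross-linking, 1065 of 7708 probe sets (13.8%) passed the test, 583 higher (7.56%) and 482 lower (6.25%) at 6 h. The median of all probe sets tested was 0.09 on the log2 scale. The 2 h and 6 h arrays did not overlap for any of the 1065, so lack of overlap adds nothing to a call. Of all 7708, called or not, 2529 were higher and 1446 lower without overlap. More than 2-fold, 233 were higher and 47 lower. Of the 15 genes with the steepest rises, 10 were on the list of interferon-stimulated genes. The difference depended on brightness. With the probe sets split into 10 groups by mean signal, the median difference of the brightest group was -0.25, with 61 called higher and 289 lower, whereas in group 5 from the dimmest it was 0.28. The highest signal was 28378 and 32330 on the CD64 2 h arrays and 14536 and 15868 on the CD64 6 h arrays. When the arrays were forced to 1 common distribution by quantile normalization, 403 probe sets were called higher and 379 lower, and with cyclic loess 445 and 359. Under all 3 scalings, 358 were called higher and 257 lower. Counts after quantile normalization therefore stand beside the lists of bright genes. Counts of list members below are to be read against the 7.56% of probe sets higher and the 6.25% lower. For bright genes the share lower was larger, at 289 of 771 in the brightest group and 106 of 771 in the group below it. The 6.25% is thus a low measure for lists of bright genes. The 9 bacterial spike-in probe sets were 2.37-fold to 3.38-fold lower on the 6 h arrays, and the ratio of the 3 prime to the 5 prime actin probe set was 1.86 and 1.75 at 2 h against 1.16 and 1.08 at 6 h. The part of these differences in the results was not tested.

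**Figure D1:**
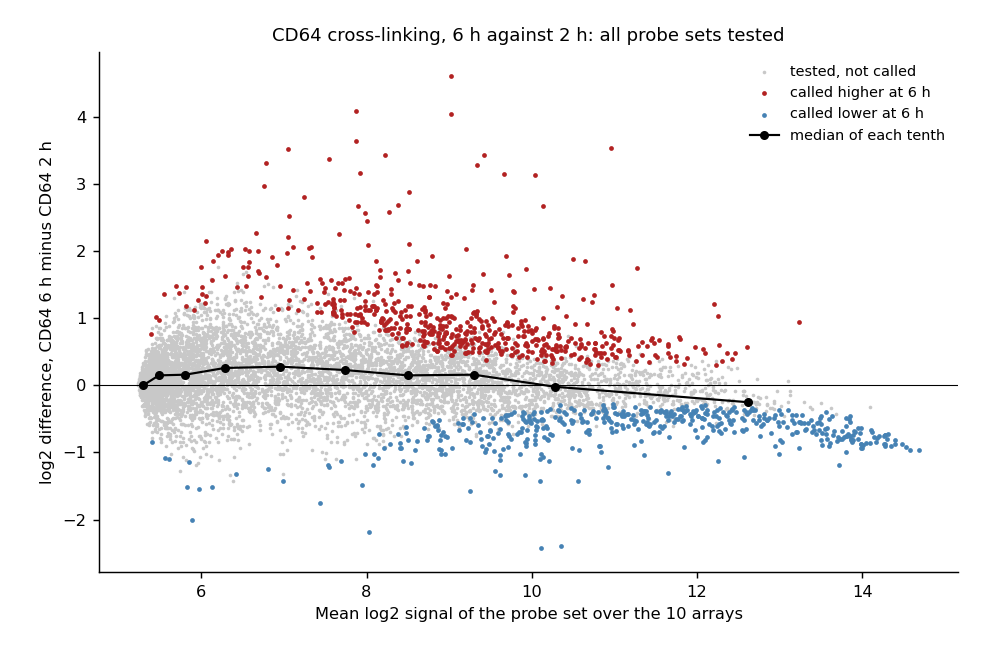
Each point is 1 of 7708 probe sets tested: the horizontal axis gives its mean log2 signal over the 10 arrays and the vertical axis the log2 difference of CD64 6 h minus CD64 2 h. Red points (583) were called higher at 6 h, blue points (482) lower, and the black line joins the medians of 10 groups of rising signal, which run from 0.28 in group 5 to -0.25 in the brightest.

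The strength of the calls rested on sharing 1 estimate of spread over the 10 arrays. With the 4 CD64 arrays fitted alone, which left 2 residual degrees of freedom, limma called 3 probe sets, those of CCL2 and TNFSF10 and another without a gene name, although 1926 had an unadjusted p under 0.05, 768 of them lower at 6 h. Without the first or the other CD64 2 h array the count was 602 or 568, and without the first or the other CD64 6 h array it was 492 or 455.

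The promoters of the genes that rose most are shown first, because a short motif was common in them. The interferon-stimulated response element core was searched as GAAANNGAAA on both strands, in the RefSeq sequence of GRCh38.p14 from 250 bases before to 50 bases after each gene's start. A promoter was found for 5547 of the 6814 genes tested. The core was present in 37 of 443 promoters of genes called higher (8.35%), in 10 of 357 of genes called lower (2.8%), in 190 of the 5547 (3.43%) and in 996 of all 27305 promoters in the RefSeq table (3.65%). Of the 30 interferon-stimulated genes that were called higher and had a promoter, 21 held it (70%). Over all 40 tested members of that list with a promoter, called or not, 24 held it (60%). The NF-kappaB consensus stood in 9.93% of promoters of genes called higher, in 4.76% of those called lower and in 7.01% of all tested. These shares were not tested, and a match is a string of letters, not a shown binding site. The 250 bases before the start are given 5 prime to 3 prime on the gene's strand for 3 genes with the interferon motif and 3 with the NF-kappaB consensus, all with marked rises. Matches are in capitals. In ISG15 the 2 interferon matches overlap each other, and in PTX3 the 2 NF-kappaB matches lie on opposite strands of nearly the same bases. In IFIT1 and IFIT3 the interferon matches lie on the opposite strand to the gene. None of the 6 genes held both motifs.
IFIT1, chr10:89392373-89392622, plus strand: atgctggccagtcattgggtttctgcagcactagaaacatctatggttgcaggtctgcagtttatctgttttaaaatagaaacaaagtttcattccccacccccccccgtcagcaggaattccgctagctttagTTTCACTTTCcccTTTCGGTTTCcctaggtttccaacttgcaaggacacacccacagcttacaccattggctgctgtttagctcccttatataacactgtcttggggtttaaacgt
IFIT3, chr10:89327747-89327996, plus strand: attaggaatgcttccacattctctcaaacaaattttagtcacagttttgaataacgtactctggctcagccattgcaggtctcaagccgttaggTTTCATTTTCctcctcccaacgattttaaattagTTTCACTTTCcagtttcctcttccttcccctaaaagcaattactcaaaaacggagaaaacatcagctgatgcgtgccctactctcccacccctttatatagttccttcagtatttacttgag
ISG15, chr1:1013247-1013496, plus strand: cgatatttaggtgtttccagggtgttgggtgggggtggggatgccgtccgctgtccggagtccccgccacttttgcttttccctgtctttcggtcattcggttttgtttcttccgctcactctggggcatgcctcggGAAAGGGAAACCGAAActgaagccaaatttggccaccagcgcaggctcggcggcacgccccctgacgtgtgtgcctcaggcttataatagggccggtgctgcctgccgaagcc
RIGI, chr9:32526197-32526446, minus strand: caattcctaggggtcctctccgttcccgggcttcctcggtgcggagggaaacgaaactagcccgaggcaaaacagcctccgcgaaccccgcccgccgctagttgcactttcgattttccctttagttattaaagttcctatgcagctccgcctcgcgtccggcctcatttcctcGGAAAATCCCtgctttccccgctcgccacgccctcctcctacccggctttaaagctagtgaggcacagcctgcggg
CXCL11, chr4:76036071-76036320, minus strand: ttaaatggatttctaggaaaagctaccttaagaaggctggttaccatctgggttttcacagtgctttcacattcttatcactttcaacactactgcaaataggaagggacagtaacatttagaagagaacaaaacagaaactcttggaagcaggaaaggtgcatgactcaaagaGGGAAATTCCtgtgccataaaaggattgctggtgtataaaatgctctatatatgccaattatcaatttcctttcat
PTX3, chr3:157436600-157436849, plus strand: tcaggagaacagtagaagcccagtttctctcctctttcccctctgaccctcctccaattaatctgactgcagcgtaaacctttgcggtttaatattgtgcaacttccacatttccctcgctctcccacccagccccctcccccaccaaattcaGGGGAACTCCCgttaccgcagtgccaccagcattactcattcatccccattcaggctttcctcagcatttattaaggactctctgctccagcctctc

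Among the receptors themselves, the inhibitory FCGR2B and the shared adaptor FCER1G rose between 2 h and 6 h, while FCGR2A did not pass the test. CD64 itself is not reported, because its probe set is annotated to several genes. FCGR2B gave 476 and 463 at 2 h and 1016 and 939 at 6 h, against 411 and 438 in the control. Both 6 h arrays lay above the 2 h and control arrays, and the rise was 2.08-fold (adjusted p = 0.00041). Its probe set may also detect close Fc receptor copies. FCER1G gave 2734 and 2860 at 2 h and 3683 and 3928 at 6 h, a 1.36-fold rise (adjusted p = 0.00712) that was no longer called without the first CD64 2 h array (log2 difference 0.41) or without the other CD64 6 h array (0.40). FCGR2A gave 616 and 596 at 2 h and 677 and 600 at 6 h, which overlap, and its log2 difference of 0.07 ± 0.129 (SE) did not pass the test (adjusted p = 0.845). FCGR3B was dim, at 53.2 and 80.6 against 118 and 58.8, and was not called (adjusted p = 0.845). FCGRT, the neonatal Fc receptor that recycles IgG, was 373 and 286 at 2 h, below the control at 748 and 547, and stood at 706 and 609 at 6 h. That 2.01-fold rise (adjusted p = 0.00413) was not called without the first 6 h array (log2 difference 0.90).

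Of the 34 genes tested for Fc gamma receptors and their proximal signalling, 4 were higher and 3 lower at 6 h, to be read beside the 13.8% of all probe sets, and the median was 0.27. Without each CD64 array in turn 2 to 4 were higher and 1 to 3 lower. The 4 were FCGR2B, FCGRT, FCER1G and TYROBP, the last another ITAM adaptor. The genes that fell were PTPN6, GAB2 and RAC1. PTPN6 encodes SHP-1, a phosphatase that ends ITAM signalling. It was 1999 and 2159 in the control, 1607 and 1531 at 2 h and 986 and 901 at 6 h, so the 3 groups formed descending steps without overlap, and the fall from 2 h was 1.66-fold (adjusted p = 0.000615). GAB2, a scaffold for PI3-kinase, gave 394 and 479 at 2 h and 244 and 213 at 6 h (adjusted p = 0.0143). It lost the call without either 6 h array, at log2 differences of -1.03 and -0.83, or without the other 2 h array, at -0.79. RAC1, a small GTPase of phagocytosis, fell by 0.40 on the log2 scale as deposited and by 0.20 after quantile normalization, where it was not called.

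Interferon-stimulated genes, which block viral RNA and proteins, had the highest median of the 44 gene lists. Of 53 tested, 37 were higher and none lower at 6 h, against 7.56% of all probe sets higher, with a median log2 difference of 1.19. The count was 36 after quantile normalization, where IRF8 was lower, 35 under all 3 scalings, and 31 to 35 without each of the 4 CD64 arrays in turn. The summed signal of the 53 genes was 61503 to 63290 in the control, 48971 to 51688 at CD64 2 h and 103626 to 109170 at CD64 6 h. After CD32 it was 76207 to 76798 at 2 h and 101711 to 102304 at 6 h, so a high sum at 6 h was not particular to CD64. With an unadjusted p under 0.05, limma gave 42 higher and 1 lower.

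IFIT1, a cap-binding protein that blocks translation of foreign RNA, gave 264 and 214 in the control, 147 and 196 at 2 h and 4416 and 3934 at 6 h. The 6 h arrays stood apart from all other arrays, and the rise was 24.6-fold (log2 difference 4.62 ± 0.186, SE, adjusted p = 3.25e-07). IFIT3, a partner of IFIT1, gave 172 and 218 at 2 h and 2645 and 3918 at 6 h, a 16.6-fold rise (adjusted p = 1.59e-06). IFIT5 gave 69.8 and 39.3 at 2 h and 396 and 683 at 6 h, and rose 9.93-fold. All 3 genes lie on chromosome 10. ISG15, a ubiquitin-like modifier, was the brightest of the steepest risers, with 654 and 766 at 2 h and 7342 and 9241 at 6 h, 11.6-fold up (adjusted p = 1.59e-06). RIGI, the cytoplasmic sensor of viral RNA formerly named DDX58, was 97.2 and 79.1 at 2 h, under the control arrays at 208 and 134, and 1143 and 1046 at 6 h. Its rise was 12.5-fold (adjusted p = 0.000146), but the level at 2 h did not differ from the control by the test (adjusted p = 0.126; 15.9% of probe sets were called in CD64 2 h against control).

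Genes of the 2'-5' oligoadenylate synthetase family rose together with them. OAS1 gave 127 and 71.2 at 2 h and 1010 and 1059 at 6 h, a 10.9-fold rise (adjusted p = 0.000132). OASL gave 154 and 128 at 2 h and 1070 and 1005 at 6 h, a 7.38-fold rise (adjusted p = 4.57e-05). IFI44 was 62.3 and 65.8 at 2 h and 639 and 688 at 6 h, 10.4-fold up. IFI44L was 64.4 and 26.2 at 2 h and 573 and 555 at 6 h. Its fitted 11.5-fold rise was computed with 1 of the 2 h arrays raised to the floor, which makes the fold smaller. All of these genes stood higher at 6 h than in the control, with adjusted p from 2.53e-07 for IFIT1 to 0.000403 for RIGI (20.6% of probe sets were called in CD64 6 h against control). The other members called higher included OAS2, OAS3, IFIH1, IRF7, IRF9, MX2, EIF2AK2 and USP18.

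TNFSF10 and IL1RN, both known interferon-responsive secreted or surface ligands, had the smallest standard errors of the 15 steepest risers. TNFSF10, the death ligand TRAIL, gave 278 and 307 in the control, 249 and 232 at 2 h and 2272 and 2388 at 6 h, a 9.68-fold rise (log2 difference 3.28 ± 0.118, SE, adjusted p = 2.18e-07). IL1RN, the interleukin-1 receptor antagonist, gave 302 and 277 in the control, 305 and 359 at 2 h and 2662 and 3231 at 6 h. It rose 8.87-fold (adjusted p = 9.6e-07). IL1B, the cytokine that IL1RN opposes, behaved differently: it was 532 and 687 in the control, 253 and 275 at 2 h and 613 and 612 at 6 h. It was lower than control at 2 h (log2 difference -1.19, adjusted p = 0.000509), rose 2.32-fold from there (adjusted p = 0.0006), and at 6 h lay at the control level (0.02, adjusted p = 0.981). Of 19 inflammatory cytokines and antagonists tested, 4 were higher, these 3 and IL16, and none was lower. The median of that list was 0.32.

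**Figure D2:**
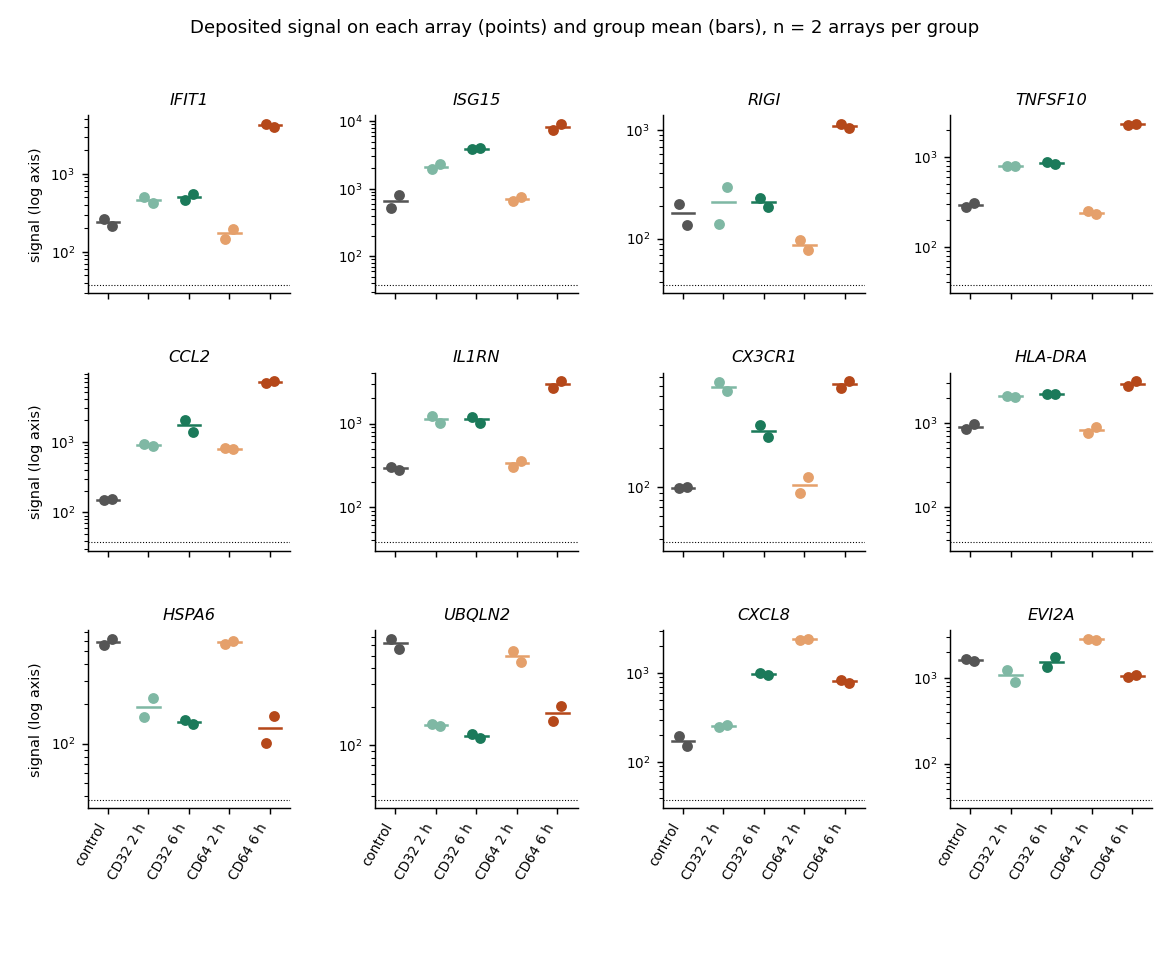
Deposited signal on a log axis for 12 genes in the 5 groups; each point is 1 array, each bar the mean of 2 arrays, and the dotted line is the floor of 37.5. IFIT1, ISG15, RIGI, TNFSF10, CCL2 and IL1RN were higher at CD64 6 h than in every other group, HSPA6 and UBQLN2 were lower at 6 h than at 2 h and in the control, and CXCL8 was highest at CD64 2 h.

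Of 23 chemokines tested, 6 were higher at 6 h (CCL4, CCL2, CXCL11, CCL7, CCL8 and CXCL10) and CXCL8 was lower, with a median of 0.26. CCL2, which attracts monocytes, gave 148 and 156 in the control, 802 and 780 at 2 h and 6684 and 7226 at 6 h. It was above control at 2 h (log2 difference 2.38, adjusted p = 1.09e-05) and rose a further 8.79-fold by 6 h (adjusted p = 9.6e-07). CCL4 gave 165 and 109 at 2 h and 1276 and 1149 at 6 h, a 9.01-fold rise with a wider error (log2 difference 3.17 ± 0.511, SE, adjusted p = 0.00227). CXCL11, a ligand of CXCR3, gave 195 and 156 at 2 h and 1446 and 872 at 6 h, a 6.44-fold rise (adjusted p = 0.00013). CXCL8, interleukin-8, the main attractant of neutrophils, was 198 and 151 in the control, 2347 and 2456 at 2 h and 833 and 786 at 6 h. It fell 2.97-fold between the times (adjusted p = 9.82e-05) and was still above control at 6 h (log2 difference 2.23, adjusted p = 4.53e-06).

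Of 33 cytokine and chemokine receptors tested, 11 were higher and TNFRSF1A was lower at 6 h, with a median of 0.44. The count of 11 was 6 after quantile normalization and 3 to 8 without each CD64 array in turn. CX3CR1, the fractalkine receptor, led the list with 89.4 and 120 at 2 h and 582 and 656 at 6 h, against 98.1 and 100 in the control. It rose 5.95-fold (adjusted p = 0.000107). C3AR1, the receptor of the complement fragment C3a, gave 354 and 406 at 2 h and 1157 and 992 at 6 h and rose 2.82-fold (adjusted p = 0.000316). C5AR1, the C5a receptor, gave 90.1 and 96.2 at 2 h and 258 and 280 at 6 h. It rose 2.89-fold (adjusted p = 0.00614), a call lost without the other CD64 6 h array (log2 difference 1.47).

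Targets and regulators of NF-kappaB, the transcription factor that Fc receptor signalling engages, were higher in 11 of 25 tested and lower in none, with a median of 0.64. After quantile normalization 9 were higher, and 7 to 9 without each CD64 array in turn. TNFAIP6, an inflammation-induced hyaluronan-binding protein, gave 79.8 and 62 at 2 h and 1196 and 1202 at 6 h, a 17-fold rise (log2 difference 4.09 ± 0.341, SE, adjusted p = 4.99e-05). PTX3, the long pentraxin that opsonises microbes, gave 277 and 237 at 2 h and 848 and 781 at 6 h and rose 3.17-fold (adjusted p = 0.000306). TRAF1, an adaptor of TNF receptors, was under the floor on both 2 h arrays and 149 and 153 at 6 h, at least 4.03-fold higher (adjusted p = 0.00524). The other members called higher were PTGS2, ICAM1, CD83, TNFAIP3, NFKB1, NFKBIE, PLAUR and NFKBIA, several of which are feedback inhibitors of the pathway.

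Immediate early transcription factors and phosphatases did not move as a body: of 35 tested 4 were higher and 5 lower, with a median of -0.04. Those higher were KLF6, DUSP5, ATF3 and MAFF, and those lower were DUSP1, SRF, MYC, ZFP36L2 and JUND. Without each CD64 array in turn, 0 to 2 were called higher and 2 to 3 lower. MYC, a driver of growth, was 1788 and 2059 in the control, 1158 and 1347 at 2 h and 657 and 606 at 6 h. The fall from 2 h to 6 h was 1.98-fold (adjusted p = 0.00131), following a lower level than control at 2 h (log2 difference -0.62, adjusted p = 0.014). EGR1, by contrast, gave 137 and 218 at 2 h and 127 and 159 at 6 h, which overlap (adjusted p = 0.69), and stood above the control values of 62.4 and 63.4 at both times.

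Of 19 JAK-STAT and SOCS genes tested, SOCS2 and STAT3 were higher and PTPN6 was lower. STAT3, a transducer of interleukin-6 and interleukin-10 signals, was 908 and 839 in the control, 594 and 562 at 2 h and 1203 and 1076 at 6 h. It was below control at 2 h (log2 difference -0.59, adjusted p = 0.00547) and above it at 6 h (0.38, adjusted p = 0.0361), and the rise between the times was 1.97-fold (adjusted p = 0.000394). SOCS2, a feedback inhibitor, gave 234 and 256 at 2 h and 486 and 584 at 6 h. It rose 2.18-fold (adjusted p = 0.0067) and lost the call without the other CD64 6 h array (log2 difference 0.99).

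Of 14 genes tested for antigen presentation by MHC class II, HLA-DPB1, HLA-DRA, HLA-DMA, HLA-DRB1, CTSS and CD74 were higher and none was lower, with a median of 0.67, and the same number, 6, was called after quantile normalization. HLA-DRA, the alpha chain of HLA-DR, gave 857 and 967 in the control, 756 and 895 at 2 h and 2774 and 3196 at 6 h, a 3.62-fold rise (log2 difference 1.86 ± 0.113, SE, adjusted p = 4.45e-06). HLA-DMA, which helps to load peptides, gave 225 and 232 at 2 h and 644 and 634 at 6 h and rose 2.8-fold (adjusted p = 0.000446). HLA-DPB1 was 136 and 151 in the control, 75 and 49.8 at 2 h and 260 and 248 at 6 h. It was below control at 2 h (log2 difference -1.23, adjusted p = 0.0228), rose 4.16-fold between the times (adjusted p = 0.00178) and at 6 h was not different from control by the test (adjusted p = 0.0982). HLA probe sets can detect related HLA genes. Of 14 class I and immunoproteasome genes, PSMB8 was higher and B2M and HLA-C were lower as deposited, while 1 was higher and none lower after quantile normalization and 3 were higher and 1 lower with cyclic loess. B2M, the light chain of class I, gave 17407 and 20199 at 2 h and 9867 and 9828 at 6 h, but its log2 difference of -0.93 became -0.22 after quantile normalization, where it was not called. HLA-C had -0.49 as deposited and turned to 0.17 with quantile normalization and 0.05 with cyclic loess. PSMB8, an interferon-induced proteasome subunit, gave 3504 and 2997 at 2 h and 4775 and 4684 at 6 h, a 1.46-fold rise (adjusted p = 0.00268) that was larger after quantile normalization (0.73 against 0.55).

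Both membrane subunits of the phagocyte NADPH oxidase, which makes superoxide in the oxidative burst, rose from a level below control. CYBB gave 596 and 526 in the control, 392 and 333 at 2 h and 1475 and 1285 at 6 h, and rose 3.81-fold (adjusted p = 4.19e-05). CYBA gave 1394 and 1606 in the control, 847 and 1082 at 2 h and 1858 and 2057 at 6 h, and rose 2.04-fold (adjusted p = 0.000507). Against control at 2 h the log2 differences were -0.63 (adjusted p = 0.02) and -0.64 (adjusted p = 0.00587). Of the 5 oxidase genes tested, these 2 were higher and RAC1 was lower as deposited.

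Among 30 myeloid surface receptors of the TREM and paired kind, 7 were higher and LILRA2 was lower, with a median of 0.31, and without each CD64 array in turn 2 to 4 were higher. TREM1, an amplifier of inflammation, gave 38.4 and 103 at 2 h and 494 and 393 at 6 h, a 7-fold rise (log2 difference 2.81 ± 0.494, SE, adjusted p = 0.00376) not called without the first 6 h array (2.64). PILRA, an inhibitory receptor, was under the floor on both 2 h arrays and 229 and 201 at 6 h, at least 5.73-fold higher (adjusted p = 0.00692). Its call was lost without either 6 h array, with fitted log2 differences of 2.43 and 2.61. CD14, the co-receptor of lipopolysaccharide, was under the floor in the control and at 2 h and gave 129 and 71.9 at 6 h, at least 2.56-fold higher (adjusted p = 0.0181), with the call lost without either 2 h array (1.36 both times) or the first 6 h array (0.94).

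Among 29 genes of matrix proteases, coagulation and remodelling, MMP1, SERPINA1, MMP2, PLAUR and TIMP1 were higher and none was lower as deposited. After quantile normalization 4 were higher and 0 lower, and with cyclic loess 4 were higher and 1 lower. MMP2 was called under neither. MMP1, interstitial collagenase, gave 165 and 122 at 2 h and 1023 and 712 at 6 h and rose 6.02-fold (adjusted p = 0.000211). SERPINA1, alpha-1 antitrypsin, was 1208 and 1091 in the control, 563 and 598 at 2 h and 1067 and 1029 at 6 h, a rise of 1.81-fold (adjusted p = 0.000448) back to near the control level. ENPP2, autotaxin, which makes lysophosphatidic acid, was in no list and was among the steepest risers, with 59.4 and 38.1 at 2 h and 392 and 354 at 6 h (7.83-fold, adjusted p = 0.000753). Of 33 lysosome and cathepsin genes, 6 were higher and 2 lower, and without each CD64 array in turn 3 to 4 were higher and 1 to 2 lower. PSAP, the precursor of saposins, gave 698 and 795 at 2 h and 1454 and 1543 at 6 h and rose 2.01-fold (adjusted p = 0.000219).

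Of 41 genes of mitosis and G2/M tested, 24 were lower and none higher at 6 h, against 6.25% of all probe sets lower, with a median of -0.53. The median was also -0.53 after quantile normalization, where 26 were lower, and 22 were lower under all 3 scalings. Without each CD64 array in turn 13 to 17 were called lower, 13 of them without the other CD64 6 h array. TOP2A, the topoisomerase of dividing cells, gave 2731 and 2963 in the control, 2574 and 2644 at 2 h and 1317 and 1314 at 6 h, a 1.98-fold fall (adjusted p = 0.000154). TACC3, a spindle protein, gave 1634 and 1280 at 2 h and 684 and 668 at 6 h and fell 2.14-fold (adjusted p = 0.000548). AURKA, CCNB2, CCNA2, BUB1 and KIF20A were among the other members called lower.

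For DNA replication and nucleotide synthesis 7 were lower and 2 higher of 43 tested, with a median of -0.20. Without each CD64 array in turn 3 to 4 were lower and 0 to 1 higher, and none was higher after quantile normalization or cyclic loess. RRM2, the small subunit of ribonucleotide reductase, was 8713 and 9035 in the control, 9153 and 9789 at 2 h and 4402 and 4619 at 6 h, and fell 2.1-fold (adjusted p = 0.000107). TYMS, thymidylate synthase, gave 9076 and 11099 at 2 h and 5118 and 5542 at 6 h. Its fall was 1.88-fold as deposited (adjusted p = 0.00295) and 0.58 on the log2 scale after quantile normalization.

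DIAPH3, an actin regulator needed for cell division, was 109 and 77.1 in the control, 129 and 177 at 2 h and under the floor on both 6 h arrays, at least 4.02-fold lower (adjusted p = 0.00227). Of 26 genes on the list of G1 cyclins and CDK inhibitors, 6 were higher and none lower. They were CDKN1A, PMAIP1, E2F4, CCND2, CDK4 and CDK2. After quantile normalization 2 were higher, the kinase CDK4 and PMAIP1. Fewer than the 6 were called without each CD64 array in turn. CDKN1A, the inhibitor p21, was 118 and 171 at 2 h and 284 and 309 at 6 h (adjusted p = 0.0259), and it was not called after quantile normalization (0.79), without the first 2 h array (0.79), or without the first (1.12) or the other (1.0) 6 h array. PMAIP1, the BH3-only protein NOXA, gave 250 and 226 in the control, 474 and 496 at 2 h and 1022 and 972 at 6 h. It rose stepwise, 2.05-fold between the times (adjusted p = 0.00186).

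Factors of myeloid and progenitor identity fell in 5 of 28 tested, CEBPA, MYC, MYB, SOX4 and HHEX, and LMO2 rose. The number lower was 6 after quantile normalization and 3 without each CD64 array in turn, and in none of these fits was LMO2 called. CEBPA, which directs granulocyte and monocyte development, was 1217 and 1536 in the control, 2086 and 1938 at 2 h and 651 and 866 at 6 h, a 2.68-fold fall (adjusted p = 0.000883). MYB, a factor of immature cells, was 5437 and 5102 in the control, 2816 and 3198 at 2 h and 1756 and 1919 at 6 h, a 1.63-fold fall (adjusted p = 0.00261) after a first step below control (log2 difference -0.81, adjusted p = 0.00102).

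HSPA6, a strictly stress-inducible HSP70, was 557 and 624 in the control, 569 and 603 at 2 h and 101 and 162 at 6 h. The CD64 6 h arrays lay below every control and CD64 2 h array, and the fall was 4.58-fold (log2 difference -2.19 ± 0.272, SE, adjusted p = 0.000559). The CD32 arrays were low at both times, with 160 and 220 at 2 h and 150 and 140 at 6 h. DNAJB1, an HSP40 co-chaperone, gave 1344 and 1396 at 2 h and 610 and 695 at 6 h and fell 2.1-fold (adjusted p = 0.000107). HSPH1 was above control at 2 h, with 3062 and 2435 against 1334 and 1468, and gave 1530 and 1283 at 6 h, a 1.95-fold fall (adjusted p = 0.00242). Of 22 heat shock genes tested 7 were lower and 3 higher as deposited, 4 lower and 3 higher after quantile normalization, and 3 lower and 4 higher with cyclic loess.

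Among targets of ATF4, the factor of the amino acid response, more rose than fell. Of 27 tested 9 were higher and 3 lower, with a median of 0.43. After quantile normalization 12 were higher and 3 lower, and without each CD64 array in turn 6 to 8 were higher and 0 to 1 lower. PSAT1, an enzyme of serine synthesis, was 831 and 690 in the control, 454 and 622 at 2 h and 1681 and 1839 at 6 h and rose 3.31-fold (adjusted p = 7.47e-05). TRIB3, a pseudokinase that restrains ATF4, was 589 and 658 in the control, 1008 and 1268 at 2 h and 2692 and 2702 at 6 h and rose 2.39-fold (adjusted p = 8.36e-05). SLC7A11, the cystine importer, gave 174 and 171 in the control, 446 and 510 at 2 h and 916 and 857 at 6 h, 1.86-fold up between the times (adjusted p = 0.00185). TXNIP, an inhibitor of thioredoxin and of glucose uptake, was named from another list, that of NRF2 targets and oxidative stress. Of 28 genes tested on that list 4 were higher and 4 lower, with a median of -0.00. TXNIP gave 537 and 487 in the control, 1039 and 1059 at 2 h and 2750 and 2605 at 6 h, a 2.55-fold rise (adjusted p = 1.43e-05). TRIB3, SLC7A11 and TXNIP thus stood above control at 2 h and higher again at 6 h, while PSAT1 was below control at 2 h (log2 difference -0.51, adjusted p = 0.0451).

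Of 18 genes of the endoplasmic reticulum and the unfolded protein response, DNAJB9, SEC61A1 and MANF were higher and PDIA4, PDIA6 and CANX were lower. After quantile normalization 3 were higher and 1 lower, and without each CD64 array in turn 3 were higher and 0 to 2 lower. DNAJB9, a co-chaperone of BiP, gave 789 and 654 at 2 h and 1313 and 1356 at 6 h and rose 1.86-fold (adjusted p = 0.00108). Among 33 genes of the BCL2 and IAP families and caspases, 8 were higher and 3 lower, but 3 to 4 were higher without each CD64 array in turn. BAX, a killer protein of the mitochondrial membrane, gave 24.5, under the floor, and 47.3 at 2 h and 234 and 178 at 6 h (adjusted p = 0.00327), against 134 and 107 in the control. Its fitted 4.85-fold rise was computed with 1 of the 2 h arrays raised to the floor, which makes the fold smaller. After quantile normalization 4 of the list were higher and 4 lower.

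**Figure D3:**
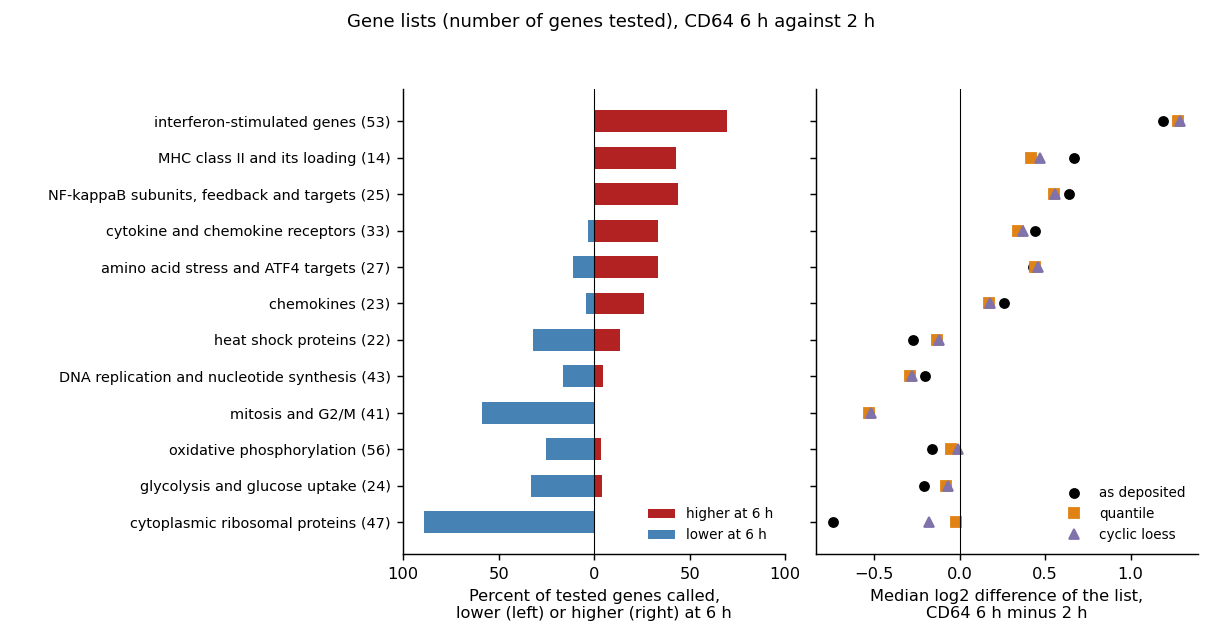
For 12 gene lists, the left panel gives the percent of tested genes called higher (red) or lower (blue) at CD64 6 h, and the right panel the median log2 difference of the list as deposited (circles), after quantile normalization (squares) and after cyclic loess (triangles). The interferon-stimulated genes (median 1.19) and mitosis genes (-0.53) kept their place under each scaling, whereas the ribosomal proteins moved from -0.74 to -0.02 and -0.18.

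The lists of bright genes were those whose fall depended on the scaling. Cytoplasmic ribosomal proteins were lower in 42 of 47 tested as deposited (median -0.74) but in 2 after quantile normalization (median -0.02) and 4 after cyclic loess (median -0.18). RPS28 was lower under all 3, with 17011 and 18106 at 2 h and 8136 and 9430 at 6 h, a log2 difference of -1.0 as deposited and -0.38 after quantile normalization, while RPS10 had -0.97 as deposited and 0.00 after it. Glycolysis genes were lower in 8 of 24 as deposited and in 2, HK2 and PGAM1, after quantile normalization, and in 4 to 8 without each CD64 array in turn. GAPDH, widely used as a reference gene, gave 16994 and 21346 at 2 h and 9408 and 11772 at 6 h, and its log2 difference of -0.86 became -0.14. HK2, the inducible hexokinase, fell under each of the 3 scalings. It was 2489 and 2081 in the control, 1271 and 1019 at 2 h and 654 and 482 at 6 h (2.03-fold, adjusted p = 0.0022). Oxidative phosphorylation genes were lower in 14 and higher in 2 of 56 as deposited, against 4 and 3 after quantile normalization, 4 and 2 with cyclic loess, and 5 to 9 lower without each CD64 array in turn. Metallothioneins, which bind zinc, were lower in 3 of 5 as deposited and in 1, MT1H, after quantile normalization, and in 1 to 3 without each CD64 array in turn. MT1H gave 4042 and 3948 in the control, 5948 and 7189 at 2 h and 4161 and 4097 at 6 h.

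NDRG1 and BNIP3, both known targets of hypoxia-inducible factor, fell under all 3 scalings, together with HILPDA and BNIP3L among 18 such genes tested. The list did not fall as a body: its median was -0.02. EPAS1 was called higher as deposited (adjusted p = 0.0171) but not after quantile normalization or cyclic loess. Fewer of the 4 falls were called without each CD64 array in turn. NDRG1 gave 6556 and 7185 in the control, 4781 and 5632 at 2 h and 2286 and 2470 at 6 h, a 2.18-fold fall (adjusted p = 7.47e-05). BNIP3, a mitophagy receptor, gave 3269 and 3101 at 2 h and 1569 and 1210 at 6 h, a 2.31-fold fall (adjusted p = 0.000212).

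Several of the steepest falls were in genes of no shared list. CTNNBIP1, an inhibitor of beta-catenin, was 255 and 224 in the control, 222 and 217 at 2 h and 59.1 and 72.3 at 6 h, 3.36-fold lower (adjusted p = 0.00226). UBQLN2, a ubiquitin-like shuttle to the proteasome, was 679 and 564 in the control, 547 and 445 at 2 h and 155 and 202 at 6 h, 2.79-fold lower (adjusted p = 0.00261). EVI2A, a membrane protein encoded within an intron of NF1, was 1655 and 1596 in the control, 2892 and 2773 at 2 h and 1025 and 1098 at 6 h. It fell 2.67-fold between the times (adjusted p = 0.000306) from a level above control (log2 difference 0.80, adjusted p = 0.00661). CCNG1, cyclin G1, had the smallest error among the steepest falls, with 5016 and 5102 at 2 h and 2040 and 2031 at 6 h (log2 difference -1.31 ± 0.0803, SE, adjusted p = 4.45e-06). REPIN1, a zinc finger protein, gave 1691 and 1744 at 2 h and 648 and 721 at 6 h, and TAF7, a subunit of TFIID, gave 1462 and 1323 at 2 h and 584 and 564 at 6 h, and both were called lower. HSPG2, POLR1G, IRX5 and GRM8 completed the 15 named for the steepest falls, which include values set by the floor. POLR1G and IRX5 had log2 differences of -1.21 and -1.25. GRM8 gave 76.2 and 149 at 2 h and was under the floor on both 6 h arrays, at least 2.84-fold lower. HSPG2 gave 92.9 and 142 at 2 h and 25.3 and 49.1 at 6 h, where 1 array was under the floor. Each of these 4 genes lost the call without at least 1 of the CD64 arrays.

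Set beside the control, the named genes took several courses. The differences from control at 2 h and at 6 h share the 2 control arrays, and the examples were chosen after their values were seen. IFIT1, TNFSF10, IL1RN, HLA-DRA and PTX3 did not differ from control at 2 h by the test and were above it at 6 h. CCL2, TXNIP, TRIB3, SLC7A11 and PMAIP1 were above control at 2 h and higher again at 6 h. IL1B, HLA-DPB1, STAT3, SERPINA1 and CYBA were below control at 2 h and rose by 6 h. CXCL8, EVI2A, HSPH1, PRDX3 and MT1H were above control at 2 h and fell by 6 h. PRDX3, a mitochondrial peroxidase, gave 6348 and 5808 at 2 h and 3568 and 3326 at 6 h, a 1.76-fold fall (adjusted p = 0.000213). MYC, MYB, HK2, NDRG1 and PTPN6 were below control at 2 h and lower again at 6 h. HSPA6, TOP2A, RRM2, CTNNBIP1 and REPIN1 did not differ from control at 2 h by the test and were below it at 6 h.

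**Figure D4:**
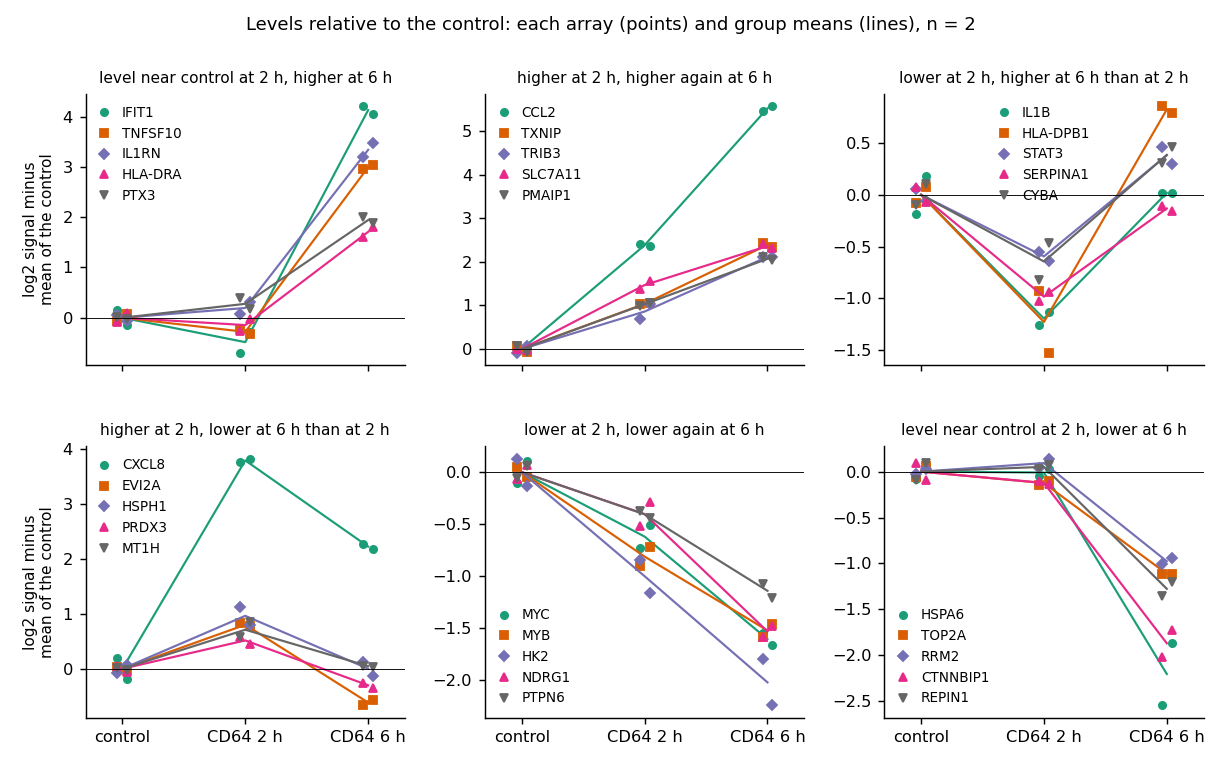
log2 signal, floored at 37.5 and relative to the control mean, of 30 named genes in 6 panels; points are arrays and lines join the means of 2 arrays for control, CD64 2 h and CD64 6 h. At 6 h IFIT1 lay 4.13 above control and CCL2 5.52 above, CXCL8 went from 3.80 at 2 h to 2.23 at 6 h, and HK2 went from -1.0 to -2.02.

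The change from 2 h to 6 h differed between the receptors for many genes. After CD32 cross-linking, 344 of 7708 probe sets (4.46%) were called between 6 h and 2 h, 157 higher and 187 lower. The lists for CD64 and CD32 share 135 probe sets, 12.7% of the CD64 calls and 39.2% of the CD32 calls, and 53 of the 135 moved the same way. The interaction of receptor and time, which tests whether the 2 changes were equal and in which they share no array, was called for 884 probe sets (11.5%), 518 more upward after CD64 and 366 more downward, with a median of 0.16 over all tested. It was called for 600 of the 1065 CD64 calls. The interaction contains the CD64 difference and uses the same CD64 arrays, so a raised share among CD64 calls follows in part from that. The interaction count fell to 584 with quantile normalization.

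The steepest risers after CD64 differed in what they did after CD32. IFI44, CCL2 and ISG15 rose after CD32 too, by 1.41, 0.89 and 0.89 on the log2 scale (adjusted p = 0.0172, 0.0109 and 0.0251), whereas the 2 CD32 times of IFIT1, IL1RN, TNFSF10, TNFAIP6 and RIGI did not differ by the test (adjusted p from 0.656 to 1). IFIT1 gave 500 and 417 at CD32 2 h and 459 and 546 at CD32 6 h, levels between those of CD64 2 h and CD64 6 h, and its interaction was 4.49 ± 0.264 (SE, adjusted p = 1.18e-05). IL1RN gave 1238 and 1007 at CD32 2 h and 1210 and 1028 at CD32 6 h (interaction 3.15, adjusted p = 3.53e-05). TNFSF10 gave 805 and 793 and then 896 and 846 (interaction 3.15, adjusted p = 1.18e-05). TNFAIP6 gave 351 and 413 and then 466 and 355 (interaction 4.0, adjusted p = 0.00065). RIGI gave 136 and 300 and then 238 and 197 (interaction 3.54, adjusted p = 0.00186). IFIT5 had an interaction of 3.66 (adjusted p = 0.00342). The interferon-stimulated genes as a list had a median of 0.42 between CD32 6 h and 2 h, with 10 of 53 higher, and the interaction was called upward for 24 of 53 and downward for 1.

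Genes that moved in opposite directions included CX3CR1, PSAT1 and STAT3 on one side and CXCL8 and HMGCS1 on the other. CX3CR1 was 642 and 545 at CD32 2 h and 302 and 242 at CD32 6 h, a log2 difference of -1.13 (adjusted p = 0.0283) where CD64 gave 2.57, and the interaction was 3.70 (adjusted p = 0.000162). PSAT1 was 1666 and 1533 at CD32 2 h and 750 and 805 at CD32 6 h (-1.04, adjusted p = 0.00515), against a rise of 1.73 after CD64. STAT3 was 1582 and 1782 at CD32 2 h and 819 and 911 at CD32 6 h (-0.96, adjusted p = 0.00141), against 0.98 after CD64. CXCL8 was 247 and 262 at CD32 2 h and 1013 and 952 at CD32 6 h, a rise of 1.95 (adjusted p = 0.000158), against -1.57 after CD64, and its interaction was -3.52 ± 0.205 (SE, adjusted p = 1.18e-05). HMGCS1, an early enzyme of cholesterol synthesis, was 270 and 231 at CD32 2 h and 1347 and 1350 at CD32 6 h, whereas it was 536 and 412 at CD64 2 h and 359 and 233 at CD64 6 h. Its interaction was -3.14 (adjusted p = 0.000165), and its fall after CD64 (adjusted p = 0.0494) was lost without either 2 h array (-0.51 and -0.89) or the other 6 h array (-0.39).

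FOSB, an immediate early gene, was 93.8 and 77.2 at CD32 2 h and 631 and 628 at CD32 6 h, while after CD64 it was 82 and 63 and then under the floor on both 6 h arrays, a difference that was not called (adjusted p = 0.115). The fall after CD64 was called with the floor at percentile 10 (log2 difference -2.14), with an offset, with no filter and without the variance trend. The fitted interaction was -3.83 (adjusted p = 0.0009), with the CD64 6 h level at the floor. EGR1 was 153 and 136 at CD32 2 h and 1038 and 878 at CD32 6 h (interaction -3.01, adjusted p = 0.00182). RGS1, a brake on G protein signals, was 62.8 and 72.1 at CD32 2 h and 496 and 975 at CD32 6 h, and 47 and 104 and then 138 and 94 after CD64, which overlap. Its interaction of -2.66 (adjusted p = 0.0343) was lost in 7 of the 8 fits that left out 1 cross-linked array, where it ran from -3.15 to -2.09. CEBPA fell after both receptors, by 1.43 on the log2 scale after CD32 (adjusted p = 0.00299) and by 1.42 after CD64, and its interaction was 0.01 ± 0.271 (SE, adjusted p = 0.994).

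**Figure D5:**
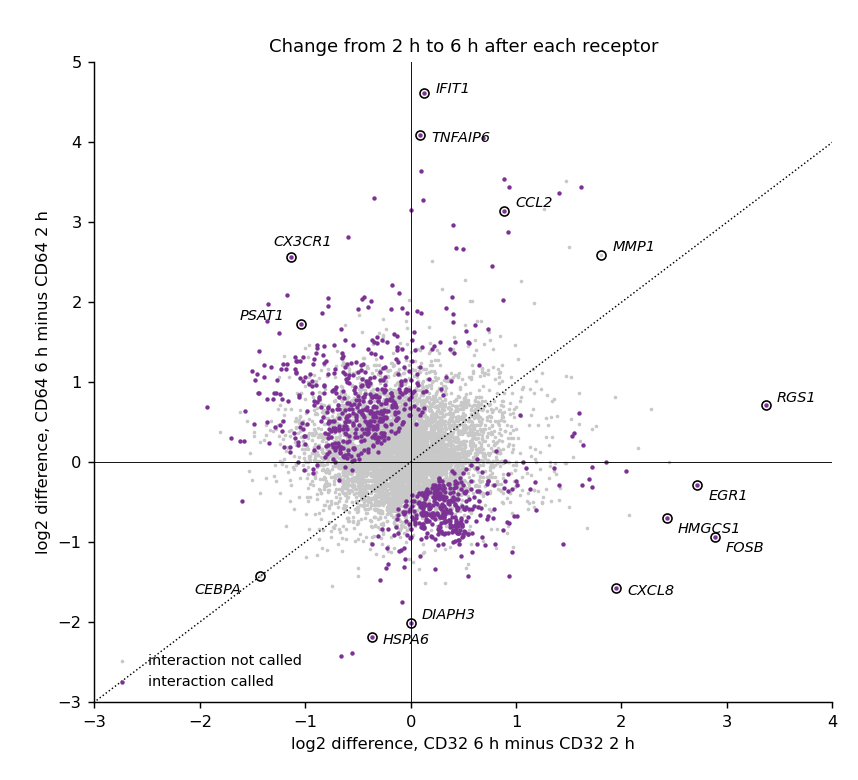
log2 difference of 6 h minus 2 h after CD32 (horizontal) and CD64 (vertical) for 7708 probe sets; purple points (884) were called in the interaction, grey points were not, the dotted line marks equal change and 14 genes are ringed. IFIT1 and TNFAIP6 lie near 0 for CD32 and at 4.62 and 4.09 for CD64, whereas CXCL8 lies at 1.95 for CD32 and -1.57 for CD64.

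The labelled cell type was set against its markers. Of 20 macrophage and monocyte markers tested, CYBB, CD14, CSF1R, ITGB2, ITGAM and TYROBP were higher at 6 h and none was lower, with a median of 0.25. The summed signal of the list was 7952 to 8674 at 2 h, 11469 to 12300 at 6 h and 11397 to 11438 in the control. CD14 was at or under the floor on the control and 2 h arrays. After quantile normalization 4 of the list were higher, and 1 to 3 without each CD64 array in turn. As deposited, no T cell, B cell or erythroid and platelet marker was called by limma, of 11, 7 and 10 tested. Of them, 1, 0 and 1 had an unadjusted p under 0.05. After quantile normalization the erythroid marker HBB was called lower, and with cyclic loess 1 erythroid or platelet marker was. The summed signal over the T cell markers was 511 to 536 at 2 h and 765 to 804 at 6 h, and over the B cell markers 339 to 492 and 336 to 548. NKG7 was the natural killer cell marker called, of 9 tested, with 1471 and 1409 at 2 h and 2160 and 2300 at 6 h against 2110 and 2188 in the control. MUC1 was the epithelial marker called, of 11 tested, at 125 and 98.5 against 223 and 262, and it lost the call after quantile normalization (0.82) and without each CD64 array in turn (0.95 to 1.29). The part of these marker differences in the other results was not tested.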

How the data were processed

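The deposited values were linear signal intensity from a 1-colour oligonucleotide array, 1 per probe set and array, in a table of 8793 probe sets, 47 of them controls. Their scaling by the authors was read from the values: leaving out the lowest and highest 2%, the 10 arrays had means of 500.5 to 500.6. The scaling software is not given in the sources used here.

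Values were kept as deposited, set to a floor of 37.5 (percentile 25 of all values) and taken to log2. Probe sets that exceeded the floor on 2 or more arrays were fitted with limma 3.58.1 in R 4.3.3 (1 term per group, 5 groups, eBayes with a variance trend, 5 residual and 5.653 prior degrees of freedom). Tests were two-sided and adjusted over 7708 probe sets by the method of Benjamini and Hochberg. Errors marked SE are limma's, on the log2 scale, with 2 arrays per group. A fold is given as "at least" where both arrays of the lower group were at or under the floor.

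Symbols came from GEO's platform annotation, updated through RefSeq for 6924 of the 6925 tested probe sets with 1 symbol. Probe sets with several symbols (388) or none (518) were not named. A gene in a list was represented by its brightest probe set. The 44 lists held 1321 genes, 1004 of them tested. The members and lists were chosen with earlier results of these data known. Named genes were the 15 with the steepest rises and the 15 with the steepest falls whose arrays did not overlap, up to 3 called members of each list, the Fc gamma receptors, and the 5 highest and 5 lowest in the interaction; Y-linked genes and XIST were left out.

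On simulated data for this comparison (7708 probe sets), 40 of 100 differences of 1 and 82 of 100 differences of 2 on the log2 scale were recovered, with 6 false calls. Alternatives were quantile and cyclic loess normalization, another floor (percentile 10), an offset, no filter, no variance trend, a replicate block, other sets of arrays and leaving out each array.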

Additional observations from a re-analysis of the deposited data

Results flagged for a closer look

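The interaction of receptor and time compares the change from 2 h to 6 h between CD64 and CD32 cross-linking. It was called for 28 of the genes named at either end of the comparison or of the interaction. DIAPH3, which was under the floor on all CD32 arrays, was left out. These genes were chosen from the same arrays, by the CD64 difference or by the interaction itself. A high number called therefore follows in part from the choice. Over all probe sets tested, 11.5% were called in the interaction. Values in parentheses are the interaction on the log2 scale, the CD64 difference minus the CD32 difference. The interaction was upward after CD64, by the most, for IFIT1 (4.49), TNFAIP6 (4.0), CX3CR1 (3.70), IFIT5 (3.66), RIGI (3.54), IFIT3 (3.36) and TNFSF10 (3.15). It was also upward for IL1RN (3.15), ISG15 (2.65), ENPP2 (2.57), OAS1 (2.51), CCL2 (2.24), OASL (1.97) and IFI44 (1.96). It was downward for TAF7 (-1.07), REPIN1 (-1.10), BNIP3 (-1.15), UBQLN2 (-1.19), CCNG1 (-1.26), CTNNBIP1 (-1.67), HSPA6 (-1.82) and EVI2A (-1.96). It was further downward for HSPG2 (-2.35), RGS1 (-2.66), EGR1 (-3.01), HMGCS1 (-3.14), CXCL8 (-3.52) and FOSB (-3.83), where 1 CD64 6 h array of HSPG2 and both of FOSB were at the floor. Both CD32 2 h arrays already lay below the control arrays for HSPA6 (160 and 220), UBQLN2 (147 and 141) and REPIN1 (734 and 708). The same held for TAF7 (544 and 634), BNIP3 (1695 and 1516), CCNG1 (2795 and 2816) and EVI2A (1253 and 892). CTNNBIP1, with 215 and 225 at CD32 2 h, overlapped with the control. The CD64 difference itself was not called for EGR1 and RGS1, nor for FOSB, where it was called under 4 alternatives (down to -2.14), and for RGS1 the interaction was lost in 7 of 8 fits without 1 array (-3.15 to -2.09). Limma's adjusted p for these interactions ran from 1.18e-05 for IFIT1, TNFSF10 and CXCL8 to 0.0495 for UBQLN2.

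A control probe set for 28S ribosomal RNA, which was in no comparison, had a mean signal of 4146 on the CD64 6 h arrays (4160 and 4132). It gave 688 and 795 in the control, 290 and 476 at CD64 2 h and 1089 to 1332 on the CD32 arrays. No explanation of it was tested.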

How the results depend on the processing

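Of 129 named genes called between CD64 6 h and 2 h, 71 kept the call and its direction under the 12 alternatives other than the fit of the 4 CD64 arrays alone, which ended 127 of the 129 calls. Of the 129, 19 lost the call with quantile normalization and 23 with cyclic loess, and 81 kept it without each CD64 array. The count of 1065 calls (583 higher, 482 lower) was 579 (382 and 197) without the variance trend. With the CD64 arrays alone limma called 3 (3 and 0), where 1926 had an unadjusted p under 0.05, 768 of them lower. Without each CD64 array in turn the count ran from 455 to 602, with 224 to 319 higher and 229 to 290 lower. The interaction count of 884 was 584 with quantile normalization, 417 without the trend and 468 to 602 without each array. The other settings stayed within 1.5 times these counts, with 867 to 1166 calls where the scaling was kept; the fit of the 8 cross-linked arrays (1062) was chosen after seeing the data. Directions turned for HLA-C (0.17 with quantile normalization, 0.05 with cyclic loess) and, with quantile normalization, for MT2A (0.15), CTSG (0.04), EEF1A1 (0.05) and RPS10 (0.00). The labels do not say that first arrays and duplicates of different groups belong together; the difference of duplicate minus first correlated across probe sets at r = 0.28 between CD64 2 h and 6 h and at -0.06 to 0.09 between the other cross-linked groups. With that order as a replicate block, also chosen after seeing the data, the counts were 1075 calls (580 and 495) and 910 for the interaction, and no named gene gained or lost its call. On the CD64 arrays 22.6% to 29.8% of values were at or under the floor. With 2 arrays per group, small and dim differences may have been missed. On simulated data small differences were recovered only in part, and recovery by brightness was not measured. The causes of lost calls were not tested. The fits that left arrays out differed both in the number of arrays and in the values used.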
